A study of Mus musculus with 6 samples.

Results

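PPARγ, PPARα and PPARδ, their partner RXRα, the C/EBP factors α, β and δ, and the lipogenic regulators SREBP-1, ChREBP and LXRα were described in mouse hearts that overexpressed the prokineticin receptor PKR1. Their genes are Pparg, Ppara, Ppard, Rxra, Cebpa, Cebpb, Cebpd, Srebf1, Mlxipl and Nr1h3. All probes other than controls that carry these gene names were taken. The rule uses names only, and the set of genes was chosen with earlier results of these data known. The arrays named 27582 genes by 41174 probes, and the 10 members had 14 of these probes. The 6 hearts were compared on 1 array each. WT hearts came from 3 mice and TG-PKR1 hearts from 3 mice that carried PKR1 under the cardiomyocyte-specific αMHC promoter. All mice were males of the C57BL6/J background, 12 weeks old. The hearts are called A, B and C within each group, and the letters pair no mice.

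PPARs are nuclear receptors that bind DNA together with RXRα and switch genes of fatty acid uptake, storage and burning on when lipid ligands bind them. Precursor cells need PPARγ to turn into fat cells. In that process C/EBPβ and C/EBPδ act early and C/EBPα later keeps up the fat cell program together with PPARγ. PPARα and PPARδ drive fatty acid oxidation in heart muscle. SREBP-1 and ChREBP turn on the enzymes that make fatty acids in response to insulin and glucose, and LXRα, a sterol sensor, raises transcription of Srebf1.

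Pparg had the smallest p-value among the members. It did not pass the limma test after adjustment over the 20000 brightest probes (limma adjusted p = 0.0962). Its level was lower in every TG-PKR1 heart than in any WT heart, with means 1.97-fold apart, whereas Ppara, Rxra, Cebpb, Cebpd and Nr1h3 differed by 0.25 or less on the log2 scale. Both Cebpa probes, Srebf1 and both Mlxipl probes had lower means in TG-PKR1 hearts. Of these 5 probes only 1 of Cebpa and 1 of Mlxipl kept the hearts of the groups apart. Among the tested probes, 2.73% were lower without overlap. The Cebpa probe without overlap differed by -1.04 on the log2 scale (SE 0.37) and Pparg by -0.98 (SE 0.15). Without WT heart A these values were -0.57 and -0.90.

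Values are log2 fluorescence of a probe after normalization between arrays, so that a difference of 1 is a 2-fold change. A probe's brightness also depends on its sequence, and levels of different probes are therefore given side by side without ranking them. Of the 14 member probes, 13 were among the 20000 brightest probes that were tested. All 13 were well above background on 6 of 6 arrays and none was saturated. The Ppard probe was outside the 20000 and was well above background on 1 of 3 WT and 2 of 3 TG-PKR1 arrays. Its value comes from a fit over all probes.

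The probe of the overexpressed receptor, Prokr1, was well above background on 0 of 6 arrays, so these arrays gave no check of the transgene. The arrays of WT heart A and TG-PKR1 hearts B and C were read over an extended range of brightness and those of WT hearts B and C and TG-PKR1 heart A in a single scan. Signal over background at the 75th percentile was 11.4 to 14.1 in the first set and 2.08 to 3.97 in the second. Each scan range held hearts of both groups. A slide carried WT heart B and TG-PKR1 heart A, and the other 4 slides carried 1 array each.

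Pparg encodes PPARγ, the receptor of the thiazolidinedione drugs. Its probe lay at chr6:115455814-115455873 of mm8 on the plus strand. Which part of the transcript a probe covers is not given in the sources used here. The log2 level was 10.66, 10.36 and 10.50 in WT hearts A, B and C. It was 9.62, 9.49 and 9.49 in TG-PKR1 hearts A, B and C. Every TG-PKR1 heart was below every WT heart, with a gap between the groups several times the SD within them, which was 0.15 in WT and 0.08 in TG-PKR1 hearts (n = 3 each). The difference, TG-PKR1 minus WT, was -0.98 (SE 0.15, 95% interval -1.32 to -0.64), a level 1.97-fold higher in WT hearts. Its unadjusted limma p of 0.000135 ranked 28 of 20000. The limma p adjusted over the 20000 tested probes was 0.0962, which did not pass 0.05. SAM, the method named in the study's methods, called Pparg at an estimated false discovery rate of 0. It called 56 of 19955 probes, or 0.281%, and Pparg was the only member among them. Fewer cells that express a gene and less of its RNA per cell cannot be told apart in RNA of whole hearts.

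The lower Pparg level appeared within each scan range. The difference was -1.17 between 1 WT and 2 TG-PKR1 hearts of the extended range and -0.81 between 2 WT and 1 TG-PKR1 hearts of the single scan. On the shared slide, TG-PKR1 heart A was lower than WT heart B by a difference of -0.75. With scan range as a term in the fit the difference was -0.99 (limma adjusted p = 0.359).

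Each array carried the Pparg probe in 10 spots, which share 1 hybridization and are not replicates of a heart. After outlier marks, 29 WT and 29 TG-PKR1 spots remained. WT spots ranged from 10.13 to 10.73 and TG-PKR1 spots from 9.25 to 9.82. All 29 TG-PKR1 spots were thus below the dimmest WT spot. The SD of the spots within an array was 0.05 to 0.19 (median 0.12), close to the SD between hearts. The Ppara probe was also spotted 10 times. Its 30 WT spots, from 9.65 to 10.40, overlapped its 30 TG-PKR1 spots, from 9.99 to 10.66.

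**Figure D1:**
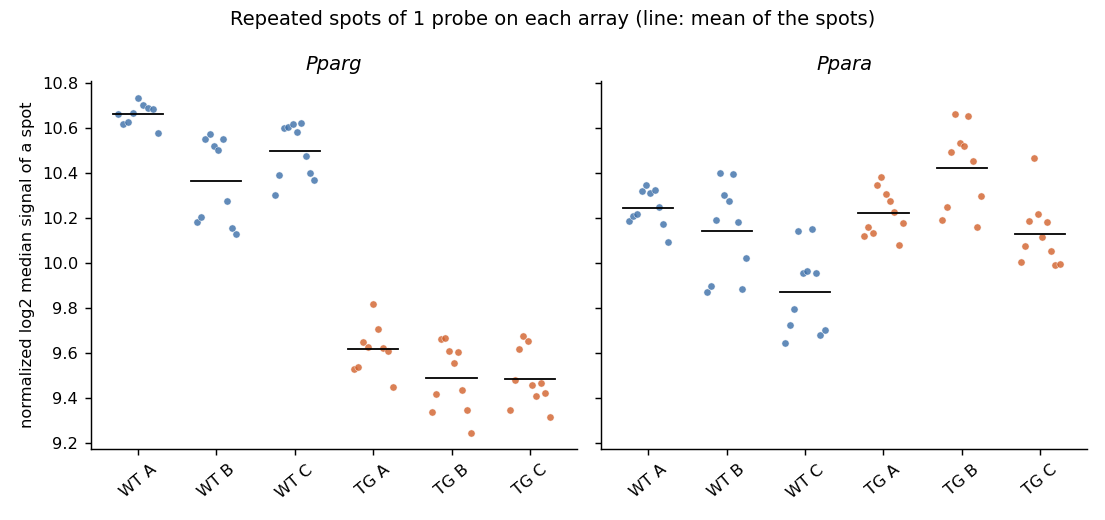
Normalized log2 median signal of each spot of the Pparg probe (left) and the Ppara probe (right) on the 6 arrays. Points are spots, blue for WT and orange for TG-PKR1 (TG), and the lines are the mean of an array. Pparg spots of TG-PKR1 arrays lie at 9.82 or lower and those of WT arrays at 10.13 or higher, whereas Ppara spots overlap.

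The table of RefSeq promoters, build GRCm38.p6, held 3 transcription starts of Pparg, and 1 probe measured the gene, so transcripts from these starts were not told apart. Fat cells are known to use a downstream start of Pparg for an isoform of their own. The 250 bases before each start are shown because Pparg was the member that SAM called, in the order of transcription. They lie on the plus strand at chr6:115360894-115361143, chr6:115362099-115362348 and chr6:115421816-115422065. Capitals mark the nuclear receptor motif AGGTCA in the first and second and the C/EBP motif TTGCNNAA in the third.
Pparg start 1: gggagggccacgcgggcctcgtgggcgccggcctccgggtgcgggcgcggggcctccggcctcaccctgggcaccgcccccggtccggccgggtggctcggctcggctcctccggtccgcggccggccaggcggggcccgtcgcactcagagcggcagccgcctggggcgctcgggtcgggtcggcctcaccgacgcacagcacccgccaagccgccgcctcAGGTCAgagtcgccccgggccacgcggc
Pparg start 2: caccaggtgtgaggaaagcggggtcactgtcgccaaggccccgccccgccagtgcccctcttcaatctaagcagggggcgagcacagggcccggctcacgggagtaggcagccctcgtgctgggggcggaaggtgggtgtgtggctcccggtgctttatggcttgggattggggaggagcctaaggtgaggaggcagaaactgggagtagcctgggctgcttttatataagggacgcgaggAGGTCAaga
Pparg start 3: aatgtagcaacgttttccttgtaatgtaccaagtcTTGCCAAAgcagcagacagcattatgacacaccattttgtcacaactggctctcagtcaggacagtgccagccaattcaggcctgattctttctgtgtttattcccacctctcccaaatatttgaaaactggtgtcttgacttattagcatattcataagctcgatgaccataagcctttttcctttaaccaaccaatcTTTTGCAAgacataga

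Both strands of 16 such windows, from 9 members, were searched for 6 motifs. Cebpd had no window in the table. TTGCNNAA lay in 1 window of a member, that of the third Pparg start, with 2 matches, TTGCCAAA at 215 bases and, on the other strand, TTTTGCAA at 16 bases before the start. Of all 32851 windows in the table, 9.56% held it. AGGTCA lay in 3 windows, those of Pparg starts 1 and 2 and of Rxra start 2, against 14.0% of all windows. AGGTCA repeated directly after 1 base, the form bound by PPAR with RXR, was in 0 of the 16 windows and in 0.0335% of all windows. The repeat after 4 bases, bound by LXR with RXR, was in 0 and 0.0152%. The E-box CACGTG was in the window of Mlxipl start 1 (6.02% of all windows) and the sterol element TCACNCCAC in that of Mlxipl start 2 (1.05%). A longer repeat also contains AGGTCA, so these searches overlap. A match is a run of letters and says nothing of binding in these hearts.

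Ppara encodes PPARα, which is abundant in heart muscle and activates genes of fatty acid oxidation. Its probe, at chr15:85629291-85629350 of mm8, gave 10.24, 10.14 and 9.87 in WT hearts and 10.22, 10.42 and 10.13 in TG-PKR1 hearts. The groups overlapped. The difference was 0.17 (SE 0.16, 95% interval -0.20 to 0.55, limma adjusted p = 0.9999). Differences of the size seen for Pparg lie outside that interval.

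Ppard encodes PPARδ, the PPAR found in most tissues. Its probe, at chr17:28027240-28027299 of mm8, gave 6.24, 6.15 and 6.05 in WT hearts and 6.19, 6.16 and 6.15 in TG-PKR1 hearts. The groups overlapped, with a difference of 0.02 (95% interval -0.14 to 0.17). A change of Ppard was not detectable at this signal, which was well above background on 3 of 6 arrays.

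Rxra encodes RXRα, a partner with which PPARs and LXRs bind DNA. Its first probe, at chr2:27584900-27584959 of mm8, gave 12.09, 12.42 and 11.92 in WT hearts and 11.97, 12.54 and 11.74 in TG-PKR1 hearts, a difference of -0.06 (SE 0.23). Its second probe, at chr2:27581805-27581864, gave 6.62, 6.80 and 6.69 against 6.91, 6.72 and 6.65 and differed by 0.06 (SE 0.15). Both overlapped between groups, and their signs were opposite at a size below their errors and turned with 75th percentile scaling in place of the loess step.

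**Figure D2:**
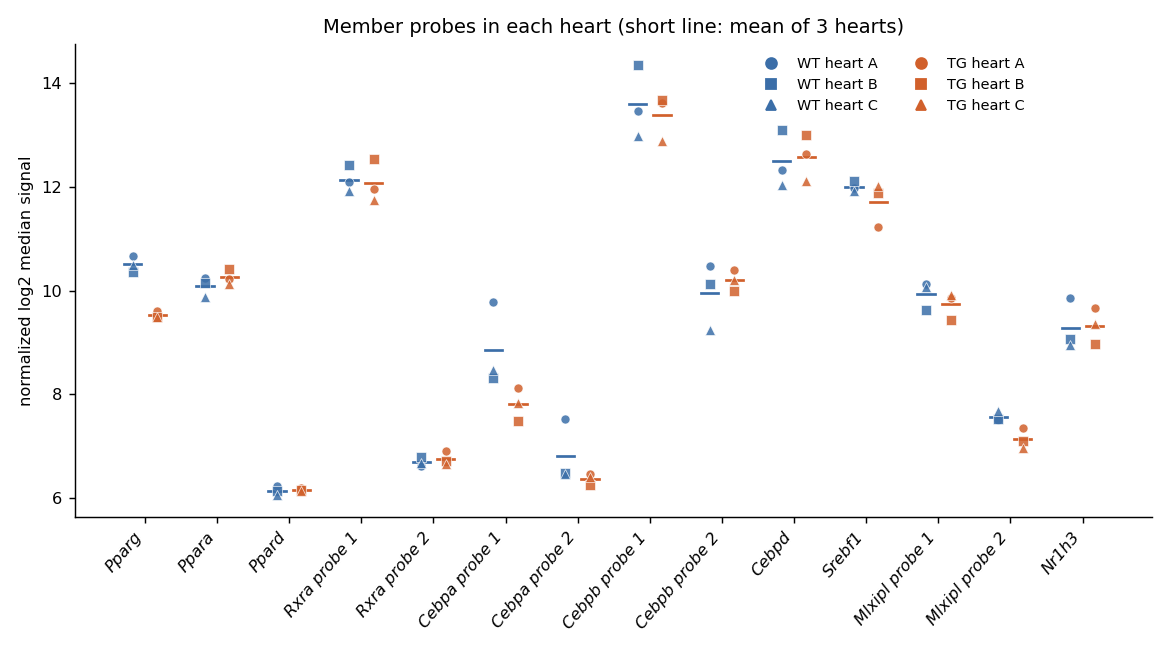
Normalized log2 median signal (vertical axis) of the 14 member probes in each heart, blue for WT and orange for TG-PKR1 (TG), with circles, squares and triangles for hearts A, B and C and short lines for means of 3 hearts. Pparg is the probe with a wide gap between tight groups, from 10.36 in the lowest WT heart to 9.62 in the highest TG-PKR1 heart.

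Cebpa encodes C/EBPα, which is induced along with PPARγ as fat cells mature. Its first probe, at chr7:34830258-34830317 of mm8, gave 9.79, 8.32 and 8.47 in WT hearts and 8.12, 7.5 and 7.83 in TG-PKR1 hearts. The groups did not overlap, but WT heart A stood well above the other WT hearts. The difference was -1.04 (SE 0.37, 95% interval -1.88 to -0.20, limma adjusted p = 0.9999). It was -2.12 within the extended range, which holds WT heart A, and -0.27 within the single scan. Without WT heart A it was -0.57, and WT hearts B and C still lay above every TG-PKR1 heart.

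The second Cebpa probe, at chr7:34829102-34829161, showed the same heart. It gave 7.52, 6.49 and 6.46 in WT hearts and 6.47, 6.25 and 6.40 in TG-PKR1 hearts. WT heart C lay just below TG-PKR1 heart A, so that the groups overlapped. The difference was -0.45 (SE 0.28, limma adjusted p = 0.9999), and it was -0.10 without WT heart A. With the background-subtracted processed signal it was -0.88. The Prokr1 probe, which no array measured well above background, gave 5.84 to 6.13. The part of background in the values of this dim Cebpa probe was not tested. The 250 bases before the Cebpa start, at chr7:35119043-35119292 on the plus strand of GRCm38.p6, are shown because Cebpa had the largest mean difference of a member probe. They held none of the 6 motifs.
Cebpa start 1: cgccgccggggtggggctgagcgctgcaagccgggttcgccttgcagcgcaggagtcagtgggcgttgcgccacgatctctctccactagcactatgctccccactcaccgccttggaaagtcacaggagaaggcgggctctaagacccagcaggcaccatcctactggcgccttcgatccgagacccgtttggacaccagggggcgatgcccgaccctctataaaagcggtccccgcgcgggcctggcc

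Cebpb encodes C/EBPβ, an early and stress-responsive C/EBP. Its first probe, at chr2:167381552-167381610 of mm8, gave 13.46, 14.34 and 12.98 in WT hearts and 13.62, 13.68 and 12.88 in TG-PKR1 hearts, a difference of -0.20 (SE 0.35). Its second probe, at chr2:167381014-167381073, gave 10.47, 10.14 and 9.25 against 10.40, 9.99 and 10.20, a difference of 0.25 (SE 0.29). The probes disagreed in sign and neither parted the groups. The second differed by -0.37 within the extended range and by 0.71 within the single scan. Cebpd, the other early factor, with its probe at chr16:15801944-15802003, gave 12.34, 13.10 and 12.04 in WT hearts and 12.64, 13.00 and 12.11 in TG-PKR1 hearts, a difference of 0.09 (SE 0.31, 95% interval -0.62 to 0.80). The intervals of Cebpb and Cebpd were wide, since single hearts of 1 group lay more than 1 log2 unit apart.

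Srebf1 encodes SREBP-1, whose form SREBP-1c responds to insulin. Its probe, at chr11:60015907-60015966 of mm8, gave 11.98, 12.11 and 11.92 in WT hearts and 11.22, 11.88 and 12.02 in TG-PKR1 hearts. TG-PKR1 heart A was low and TG-PKR1 heart C was inside the WT range. The difference was -0.30 (SE 0.22, 95% interval -0.79 to 0.20, limma adjusted p = 0.9999). It was -0.03 within the extended range and -0.79 within the single scan, which holds TG-PKR1 heart A, and -0.05 without that heart.

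Mlxipl encodes ChREBP, which senses glucose metabolites. Its first probe, at chr5:135422262-135422321 of mm8, gave 10.12, 9.63 and 10.06 in WT hearts and 9.86, 9.44 and 9.91 in TG-PKR1 hearts, a difference of -0.20 (SE 0.20) with overlap. Its second probe, at chr5:135422512-135422571, gave 7.51, 7.52 and 7.68 in WT hearts and 7.36, 7.10 and 6.97 in TG-PKR1 hearts. Here every TG-PKR1 heart was below every WT heart. The difference was -0.42 (SE 0.16, 95% interval -0.79 to -0.06, limma adjusted p = 0.9999). It was -0.47 within the extended range and -0.24 within the single scan. Over all hearts the probes agreed in sign and only the dimmer parted the groups. Probe 1 differed by -0.45 within the extended range and by 0.01 within the single scan.

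Nr1h3 encodes LXRα. Its probe, at chr2:90985117-90985176 of mm8, gave 9.85, 9.06 and 8.95 in WT hearts and 9.66, 8.98 and 9.35 in TG-PKR1 hearts, with heart A of each group the brightest. The difference was 0.04 (SE 0.27). It was -0.69 within the extended range and 0.65 within the single scan, so that its sign differed between scan ranges and turned with scan range as a term.

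Over the 13 tested probes, limma called 0 members at an adjusted p of 0.05, against 19 of 20000 probes, or 0.0950%, all of them lower in TG-PKR1 hearts. At an unadjusted limma p under 0.05 it gave 3 member probes, of Pparg, Cebpa and Mlxipl, against 2.38% of tested probes. The same 3 probes were those whose hearts did not overlap between groups, all lower in TG-PKR1 hearts. Among the tested probes, 2.73% were lower without overlap. With 3 hearts per group an exact permutation test of a single probe cannot give a p below 0.1. By their brightest tested probe, 6 of 9 members were lower by mean in the TG-PKR1 group, against 41.8% of tested probes. Their median difference was -0.20, and the median of all 20000 probes was 0.03.

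**Figure D3:**
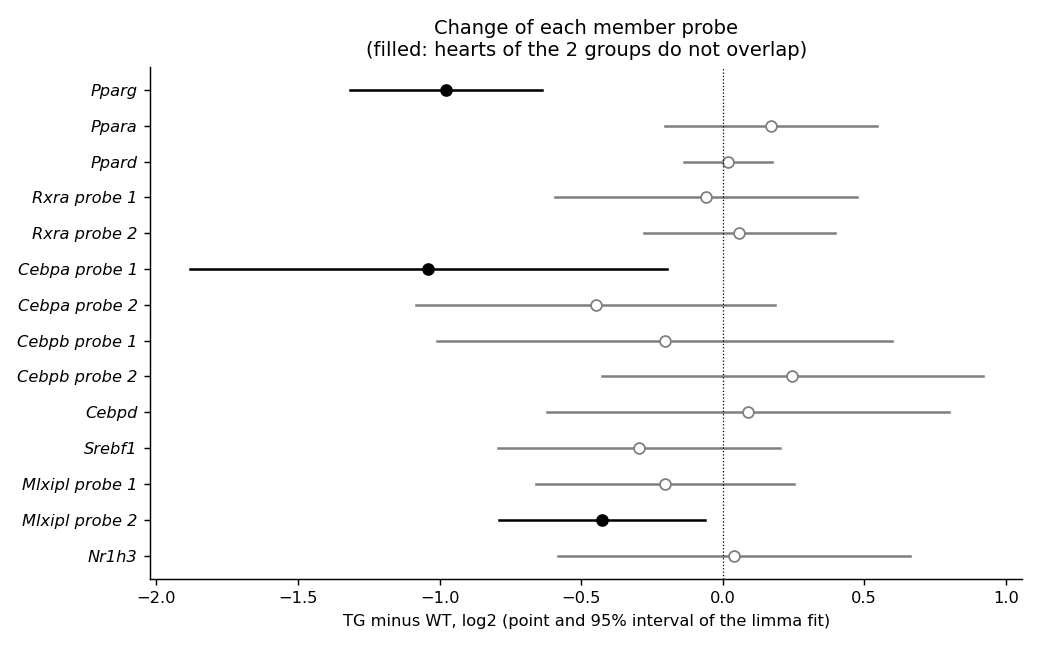
Difference between TG-PKR1 and WT hearts (horizontal axis, log2) for the 14 member probes, with points for the limma estimate and lines for its 95% interval. Filled points are probes whose hearts do not overlap between groups, which are Pparg at -0.98, Cebpa probe 1 at -1.04 and Mlxipl probe 2 at -0.42; the other intervals include 0.

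The change of Pparg was set against that of each of the 12 other member probes among the 20000, as the difference of their log2 values within each heart. The change of Pparg minus that of Ppara was -1.15 (SE 0.16), with differences of 0.42, 0.22 and 0.62 in WT hearts and -0.60, -0.93 and -0.64 in TG-PKR1 hearts. Ppard, near background, was not used here. Against the Rxra probes the value was -0.92 (SE 0.33) and -1.04 (SE 0.14). Against Nr1h3 it was -1.02 (SE 0.27). In these 4 comparisons the hearts of the groups did not overlap, but neither did they for 92.8% of all other tested probes subtracted from Pparg in the same way, since Pparg itself did not overlap. The lack of overlap is therefore no result about these members. Each reached the smallest two-sided exact permutation p of 0.1, which was 0.171 after Benjamini-Hochberg adjustment over the 12 comparisons, so that none could pass 0.05.

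Against the C/EBP factors the picture was less even. Against Cebpb probe 2 the value was -1.22 (SE 0.36) without overlap, but against Cebpb probe 1, at -0.77 (SE 0.51), and Cebpd, at -1.07 (SE 0.46), the hearts overlapped. The changes of Pparg and of Cebpa probe 1 differed by 0.06 (SE 0.41, exact permutation p = 1). Those of Pparg and Cebpa probe 2 differed by -0.53 (SE 0.28), or by -0.20 with the background-subtracted processed signal. Against Srebf1 the value was -0.68 (SE 0.32) with overlap. Against the Mlxipl probes it was -0.77 (SE 0.16) and -0.55 (SE 0.13), both without overlap. In all, 7 of the 12 comparisons kept the hearts of the groups apart, against the 92.8% of all other tested probes.

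**Figure D4:**
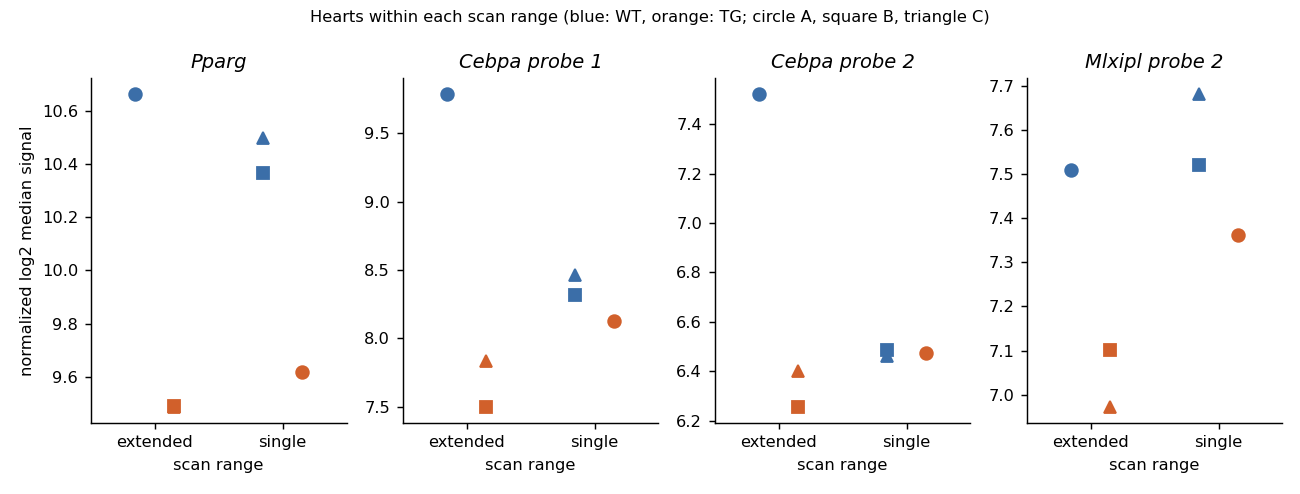
Normalized log2 median signal (vertical axis, a scale for each probe) of Pparg, both Cebpa probes and Mlxipl probe 2, with hearts placed by scan range and coloured blue for WT and orange for TG-PKR1. WT hearts lie above TG-PKR1 hearts in each scan range for Pparg, and WT heart A, in the extended range, is the highest heart for both Cebpa probes, at 9.79 and 7.52.

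Partners and target genes were taken from lists by name, 1 brightest probe per gene. Of 20 receptor partners and coregulators tested, 0 were called and 0 had an unadjusted limma p under 0.05. Over the tested probes the shares were 0.0950% and 2.38%. A count of 0 in this list or the next 2 is therefore no result about its genes. The median difference was 0.13. Ppargc1a, the coactivator of PPARs in oxidative tissue, had the largest, 0.49 (SE 0.28). It was followed by LXRβ (Nr1h2) at 0.30 (SE 0.15) and the corepressor Ncor1 at 0.28 (SE 0.18). For Ppargc1a, WT heart A stood low, at 10.81 against 11.84 and 11.44 in WT hearts B and C. Of 16 other C/EBP and adipogenic transcription factors 0 were called (median 0.01). Klf9 was at 0.29 (SE 0.32), Tcf7l1 at -0.23 (SE 0.43) and Ebf2 at -0.19 (SE 0.22). For Klf9, WT heart C stood low, at 10.07 against 11.44 and 10.95 in WT hearts A and B. Its TG-PKR1 hearts were at 11.30, 10.85 and 11.19. Of 13 genes that process or partner SREBP and ChREBP 0 were called (median -0.00), with Insig1, which holds SREBP in the endoplasmic reticulum, at -0.40 (SE 0.25), Nfyc at 0.30 (SE 0.19) and Usf2 at 0.23 (SE 0.20). The median of the tested probes was 0.03.

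Of 15 tested genes known as PPARγ targets in fat cells, 13 were lower by mean in the TG-PKR1 group, against 41.8% of tested probes. In this list limma called 3, all lower, against 0.0950% of tested probes. The list's median was -0.54, and -0.65 with scan range as a term. Cidec, which enlarges lipid droplets, fell from 13.75, 13.37 and 12.92 in WT hearts to 11.66, 11.36 and 10.96 in TG-PKR1 hearts. Its difference was -2.02 (SE 0.25, limma adjusted p = 0.0386). The lipid droplet coat gene Plin1 fell by 2.25 (SE 0.23, limma adjusted p = 0.0339) and the adipokine Adipoq fell by 1.93 (SE 0.18, limma adjusted p = 0.0339). The list had 0 called genes without WT heart A, WT heart C, TG-PKR1 heart A or TG-PKR1 heart C, and with scan range as a term. In 4 further settings it had 0 as well, which were the table of the authors, arrays scaled to their 75th percentile without a loess fit, a fit on every probe of the array, and a fit on probes that at least 3 arrays measured above background.

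Of 17 tested lipogenic target genes of SREBP-1 and ChREBP, 12 were lower by mean, against 41.8% of tested probes. In this list limma called 2, both lower, against 0.0950% of tested probes. The list median was -0.51, and -0.50 with scan range as a term. Elovl6, a fatty acid elongase, fell from 10.82, 9.74 and 10.74 in WT hearts to 7.95, 7.88 and 6.89 in TG-PKR1 hearts. Its difference was -2.86 (SE 0.36, limma adjusted p = 0.0386). Fasn, the fatty acid synthase, fell by 2.75 (SE 0.36, adjusted p = 0.0445). The desaturase Scd1, which LXR also induces, had a difference of -2.67 (SE 0.49, adjusted p = 0.184). These values were larger than those of Srebf1 (-0.30) and Mlxipl (-0.20 and -0.42), whose own differences did not pass the test. The differences were not tested against each other. The list had 0 called genes without any 1 heart other than WT heart B, and with scan range as a term. The same 4 settings that ended the calls of the PPARγ targets, and loess along the median profile of the arrays, also left 0.

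Of 20 tested PPARα and PPARδ targets of fatty acid oxidation 0 were called, and 3 had an unadjusted limma p under 0.05. Over the tested probes these shares were 0.0950% and 2.38%. A count of 0 called in this list or in that of LXR targets is therefore no result about its genes. The median of the PPARα and PPARδ targets was -0.09. The 3 were Angptl4 (-1.09, SE 0.33), an inhibitor of lipoprotein lipase, the lipid droplet coat gene Plin2 (-0.92, SE 0.29) and the pyruvate dehydrogenase kinase Pdk4 (-0.70, SE 0.27). Of 7 tested LXR targets 0 were called (median -0.20), and 1, Scd1, had an unadjusted limma p under 0.05, against the same shares of tested probes. The cholesterol exporter Abca1 was at -0.38 (SE 0.19) and the apolipoprotein Apoe at -0.22 (SE 0.25).

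**Figure D5:**
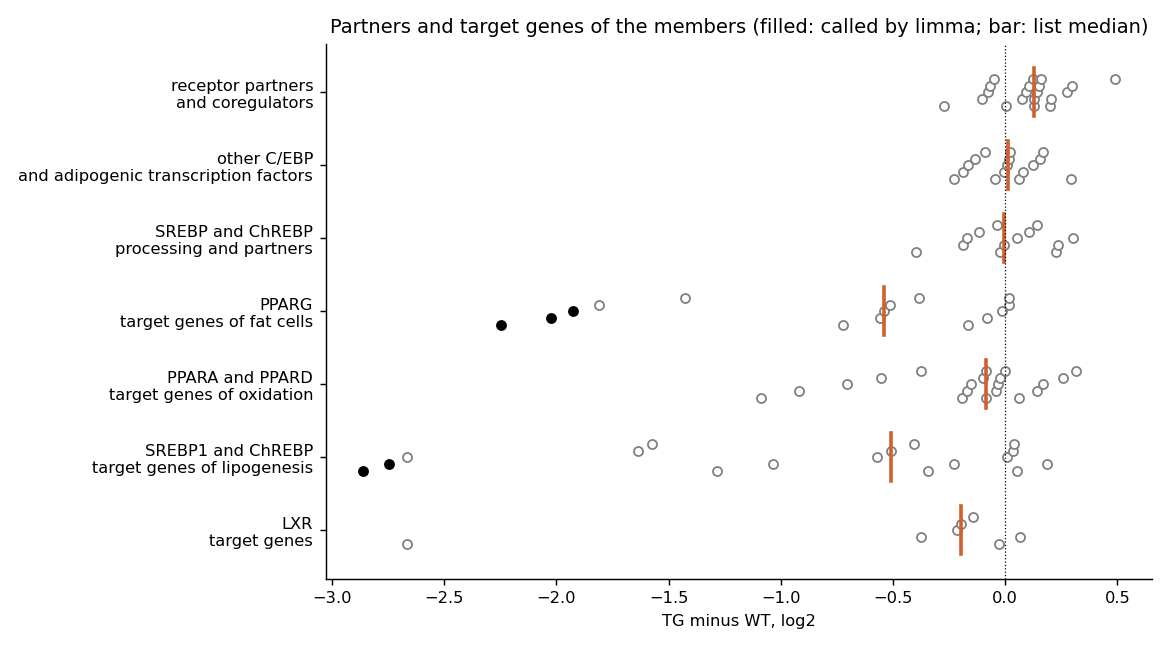
Difference between TG-PKR1 and WT hearts (horizontal axis, log2) of each tested gene of 7 lists of partners and target genes, 1 point per gene, filled where limma called it, with an orange bar at each list's median. The lists of receptor partners, other transcription factors and genes that process or partner SREBP and ChREBP have medians of 0.13, 0.01 and -0.00. The PPARγ fat cell targets and the lipogenic targets have medians of -0.54 and -0.51 and reach down to -2.25 and -2.86. The PPARα and PPARδ targets and the LXR targets have medians of -0.09 and -0.20 and reach down to -1.09 and -2.67.

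Markers of fat cells were lower in the same hearts as Pparg. Of 7 adipocyte markers 6 were tested, and all 6 were lower in TG-PKR1 hearts without overlap, against 2.73% of tested probes. Their median difference was -1.87. Of these 6, limma called 3, against 0.0950% of tested probes. These 6 also stood in the list of PPARγ targets. Their summed linear signal was 123429 to 185147 in WT and 69246.7 to 83269.6 in TG-PKR1 hearts. Fabp4, with the strongest signal of the 6, weighs most in this sum and differed least (-0.72, SE 0.19). Of 5 brown adipocyte markers 1 was called, the uncoupling protein Ucp1 (-3.23, SE 0.42, limma adjusted p = 0.0445). Cidea was at -1.77 (SE 0.25) and Dio2 at -1.39 (SE 0.20). Cox7a1, at -0.07 (SE 0.25), and Cox8b, at -0.08 (SE 0.21), hardly differed. In WT heart A their probes gave 17.11 and 15.71, and those of the cardiomyocyte markers Myh6 and Actc1 gave 17.51 and 16.04. The part of heart muscle in the values of Cox7a1 and Cox8b was not tested, so they are no result about brown fat cells. With scan range as a term, and without WT heart A, WT heart C, TG-PKR1 heart A or TG-PKR1 heart C, 0 probes were called, the adipocyte and brown adipocyte markers included. The same held with the 4 settings named for the PPARγ targets. The 9 cardiomyocyte markers, well above background on all arrays, had differences of 0.02 to 0.23, with 0 called and 0 at an unadjusted limma p under 0.05. The part of fat cell content in the values of Pparg, Cebpa and the target genes was not tested.

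The genes whose levels followed that of Pparg most closely over the 6 hearts were Cxcl13 (Pearson r = 0.998), the array sequence NAP025923-1 (0.997), Adipoq (0.996), Acvr1c (0.995) and Gpd1 (0.993), among 13994 genes. The hearts form 2 groups in Pparg, so that these coefficients mostly carry the difference between groups, and no test was made. Cxcl13 is a B cell chemokine, Acvr1c a receptor of the activin family and Gpd1 an enzyme that makes the glycerol backbone of triglycerides. Their differences were -1.46 for Cxcl13, -0.96 for Acvr1c and -1.99 for Gpd1.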

How the data were processed

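RNA of whole hearts from 3 WT and 3 TG-PKR1 mice was hybridized to 1-colour Agilent arrays. The authors deposited scanner files of fluorescence intensity per spot from Agilent Feature Extraction 9.5.1.1, with probe positions on mm8, and a table of log2 values that they had normalized by LOWESS to a median profile. Precision is limited by 3 arrays per group and by signal over background. From the scanner files, log2 median signals were taken without background subtraction. Controls and spots with an outlier mark were dropped. A loess fit (span 0.3, 4 iterations) brought each array to the median profile, along the mean of array and profile. Repeated spots were then averaged per probe, and the 20000 of highest median were kept. Groups were compared by limma 3.58.1 in R 4.3.3 (lmFit, eBayes), with Benjamini-Hochberg adjustment over the 20000 kept probes, and by SAM, written for these data. Ratios of members were compared by exact permutation tests. Named genes were all members, from each list of partners and targets the 3 with the largest difference and any called, a called marker, and the 5 most like Pparg. Members, lists and tests were chosen with earlier results of these data known. Gene symbols and promoters came from RefSeq tables of build GRCm38.p6, without conversion of positions. The fits were tested on simulated data. Protein sequences were not used here.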

Additional observations from a re-analysis of the deposited data

How the results depend on the processing

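Values were recomputed under 21 alternatives, of which 6 left out 1 heart each. Of 738 recomputed values, 668 were taken as kept, among them values that repeat the main ones. Differences of member probes had to keep their direction and side of the threshold, and comparisons of Pparg with other members their direction only. List medians had to lie within the spread of the main value, and counts near the main count. Pparg was lower in TG-PKR1 hearts under all 21, at -1.08 to -0.87 on the log2 scale, and at -1.05 to -0.90 without any 1 heart. Its limma adjusted p ranged from 0.0511 with quantile normalization to 0.9997 with 75th percentile scaling. SAM in place of limma called it, at -0.98, which made 1 member called in place of 0. Both Cebpa probes, Srebf1 and both Mlxipl probes stayed lower, and Ppara stayed higher by mean, in all alternatives that gave them a value. The alternatives with all probes, probes above background on at least 3 arrays, a trend in eBayes, robust eBayes or SAM reused the main normalized values. Their differences for these members and Pparg equal the main ones, so they were no check of direction. Without 1 heart, Cebpa probe 1 ranged from -1.31 to -0.57, Cebpa probe 2 from -0.63 to -0.10 and Mlxipl probe 2 from -0.53 to -0.34. Srebf1 ranged from -0.45 (without TG-PKR1 heart C) to -0.05 (without TG-PKR1 heart A). Mlxipl probe 1 ranged from -0.36 (without WT heart B) to -0.05 (without TG-PKR1 heart B). With all hearts kept, Cebpa probe 2 ranged from -0.92 with 75th percentile scaling to -0.34 with normexp and quantile normalization. Mlxipl probe 2 then ranged from -0.70 with the background-subtracted processed signal to -0.31 with normexp and quantile normalization. No paired analysis was possible because no label ties a WT mouse to a TG-PKR1 mouse. Slide as a random block could not be fitted, since the 6 arrays lay on 5 slides. The loess axes were alternatives chosen after seeing the data.

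Small differences changed sign. Nr1h3 was at -0.011 with the background-subtracted processed signal, -0.0033 in the table of the authors and -0.018 with scan range as a block. With 75th percentile scaling, Rxra probe 1 was at 0.10 and probe 2 at -0.27, and the Pparg change minus that of Cebpa probe 2 was 0.050. With normexp and quantile normalization, Pparg minus Cebpa probe 1 was -0.064. Without 1 heart, the range was -0.29 to 0.11 for Rxra probe 1, -0.018 to 0.11 for Rxra probe 2, -0.51 to 0.17 for Cebpb probe 1, -0.11 to 0.50 for Cebpb probe 2, -0.14 to 0.40 for Cebpd and -0.13 to 0.32 for Nr1h3. It was -0.33 to 0.26 for Pparg minus Cebpa probe 1, which was below 0 without WT heart A or TG-PKR1 heart B.

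Counts of calls depended on the setting. Probes called lower, 19 in the main fit, numbered 29 with the processed signal, 33 with quantile normalization, 31 with a trend in eBayes, 56 with SAM, 38 with loess along the signal of the array and 2 with loess along the median profile. They numbered 0 with 75th percentile scaling, with all probes, with probes above background on at least 3 arrays, in the table of the authors and with scan range as a block. Without 1 heart they numbered 0 to 19, with 0 without WT heart A or C or TG-PKR1 heart A or C and 8 without TG-PKR1 heart B. Fat cell targets of PPARγ called lower numbered 5 with quantile normalization, with a trend, with SAM and with loess along the signal of the array, 1 with loess along the median profile and 0 in the 5 settings that left 0 probes. Lipogenic targets called lower numbered 4 with SAM, 1 with normexp and quantile normalization, and 0 in those 5 settings and with loess along the median profile. Without 1 heart these lists held 0 to 3 and 0 to 2 called genes. The list median of LXR targets was -0.11 with 75th percentile scaling and with all probes. Without 1 heart, list medians were -0.71 to -0.42 for fat cell targets and -0.68 to -0.38 for lipogenic targets. The cause of these changes was not tested, other than that all probes and probes above background enter more tests.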
